A study of Homo sapiens with 4 samples.

Results

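The genes described are 10 in number and were followed through the knockdown of YY1 in an esophageal cancer cell line. All are factors or markers of the mesenchymal state, namely the transcription factors SNAI1, SNAI2, ZEB1, ZEB2, TWIST1, TWIST2 and PRRX1, and the cytoskeletal and matrix genes VIM, FN1 and SPARC. They were chosen by gene symbol. Of these 10 genes, 9 were found among the 30716 gene rows of the deposited table, and PRRX1 was not analysed here. The study sequenced RNA from KYSE30, an established human line of esophageal squamous cell carcinoma. In 2 libraries (shYY1) the transcription factor YY1 was depleted by a short hairpin RNA, and in the other 2 (shNC) the hairpin was a negative control. The knockdown cells were stable and selected with puromycin. The comparison asks which transcripts differ when YY1 is depleted. The labels do not say whether the 2 libraries of a group were separate cultures, whether the selected cells were a pool or a clone, or how many hairpins were used, so the p-values reflect only how these libraries vary, which may be technical. Effects of YY1 loss and of the hairpin itself cannot be told apart.

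Epithelial cells that pass through epithelial-mesenchymal transition lose cell-cell junctions and gain motility and a fibroblast-like shape. The zinc finger factors of the SNAI and ZEB families and the basic helix-loop-helix TWIST factors drive it, largely by binding E-box DNA words in epithelial genes such as that of E-cadherin and recruiting corepressors. Vimentin, fibronectin and SPARC are widely read as markers of the mesenchymal end state, and partial programmes that keep epithelial keratins are common in squamous carcinomas.

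Library totals lay between 67390336 and 72499865 counts. YY1 itself was at 113 ± 4.23 in shNC and 35.7 ± 1.96 in shYY1 (SD, n = 2 each), in CPM (counts scaled to library size, here with edgeR's TMM factors), so the targeted gene was lower where the labels say so. The identity of the cells was checked with marker lists. All 15 squamous markers were tested, and their summed level was 1434 to 1555 CPM in shNC and 1894 to 1918 CPM in shYY1. A few abundant genes can carry such a sum. By the test described below, 1 of the 15 passed as higher and 0 as lower, or 6.67%, against 9.94% of all tested genes. Their median log2 fold change was 0.16, with 13 of the 15 positive. Of 15 fibroblast markers 8 had a row, with summed levels of 6.42 to 7.64 CPM in shNC and 6.62 to 8.59 CPM in shYY1. POSTN was at 0 counts in all 4 libraries, and PDGFRB, at 18 and 6 counts in shNC, was at 0 in both shYY1 libraries. PDGFRB had too few counts to be tested. Only 3 fibroblast markers were tested, all with a positive log2 fold change (median 0.16), and 0 passed. The leukocyte gene PTPRC was also at 0 throughout. Of 15 leukocyte markers 10 had a row, with summed levels of 13.1 to 15.4 CPM in single libraries. Of 12 endothelial markers 8 had a row, and these summed to 43.5 to 47.9 CPM. Retina markers, measured because the extraction text of the labels speaks of retina, summed to 2.58 to 4.32 CPM over 8 genes with a row, most of it from ROM1.

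The sequences below show how far reads can tell the paralogs among these genes apart. TWIST1 and TWIST2 are the closest pair. The stretch of 120 coding bases around their longest shared run is shown with the 13 positions at which they differ in capitals. It is chr7:19116902-19117021 (minus strand, exon 1) for TWIST1 and chr2:238848390-238848509 (plus strand, exon 1) for TWIST2, in GRCh38, from GENCODE 29 transcripts.
TWIST1: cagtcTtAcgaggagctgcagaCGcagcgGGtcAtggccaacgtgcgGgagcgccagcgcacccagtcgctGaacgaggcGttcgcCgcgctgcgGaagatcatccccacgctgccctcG
TWIST2: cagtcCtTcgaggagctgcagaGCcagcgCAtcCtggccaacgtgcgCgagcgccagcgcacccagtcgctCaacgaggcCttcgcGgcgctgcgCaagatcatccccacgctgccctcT
Over 480 aligned coding bases the pair was 85.4% identical, yet the longest run shared exactly by both transcripts had 23 bases. The longest exact run was 11 bases between SNAI1 and SNAI2 and 20 between ZEB1 and ZEB2. No window of 50 bases was shared within any of these 3 pairs (0 shared windows), although the read length behind the counts is not given in the sources used here.

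ZEB1 has several annotated start sites, and 1 of its promoter windows is shown because it carries the E-box word that SNAI and ZEB proteins bind. The window runs from 250 bases before to 50 bases after a start site (RefSeq, GRCh38.p14, chr10:31318966-31319265, plus strand), and capitals mark its 3 matches to CACCTG or, on the other strand, CAGGTG.
ZEB1: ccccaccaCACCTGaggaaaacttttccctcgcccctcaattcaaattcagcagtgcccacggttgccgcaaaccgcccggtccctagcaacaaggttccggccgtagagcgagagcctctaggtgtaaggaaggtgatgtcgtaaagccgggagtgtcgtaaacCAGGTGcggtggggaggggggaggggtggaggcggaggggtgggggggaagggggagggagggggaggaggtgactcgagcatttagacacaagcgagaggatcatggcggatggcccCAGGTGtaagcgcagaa
Such windows were found for 7 of the 10 genes, and not for SNAI1, SNAI2 and TWIST1. There were 13 windows in all, most of them of ZEB1, and 2 held CACCTG on either strand, both at ZEB1. Of all 35116 promoter windows of the same length, 20.6% held it. The word CCATNTT, read on both strands as a YY1 recognition word, was in 1 of the 13 windows, also at ZEB1, and in 15.6% of all windows. Those of VIM, FN1, TWIST2, SPARC, ZEB2 and PRRX1 held neither word.

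Among these genes, only SNAI1 passed the test between shYY1 and shNC, and it rose. The other tested genes did not pass: TWIST1, SNAI2, VIM and FN1 were lower by 1.16-fold to 1.42-fold, TWIST2 differed by 0.14 on the log2 scale, and ZEB1 and SPARC had too few counts for a precise value. Tests were edgeR's quasi-likelihood test over 18035 genes with Benjamini-Hochberg adjusted p-values, called under 0.05. Of the 9 genes with a row, 8 had enough counts to be tested, and ZEB2 had not. By this test 1 of 8 was called higher, against 5.05% of all tested genes, and 0 of 8 lower, against 4.9% of all tested genes. At an unadjusted p under 0.05, edgeR, DESeq2 and limma-trend on log2 CPM each had 1 higher and 2 lower, and after adjustment the other tools also called 1 higher and 0 lower. The median log2 fold change of the 8 was -0.25, against -0.01 over all tested genes. In 7 of the 8, 5 lower and 2 higher in shYY1, the groups did not overlap in CPM, but this held for 54.9% of all tested genes. ZEB1, among the 5 lower, reached the count filter only through shNC, where it was higher. Its place among the 5 and in the median is thus not read as support. RNA was measured in bulk, so a change in every cell and a change in the share of cells that express a gene cannot be told apart.

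**Figure D1:**
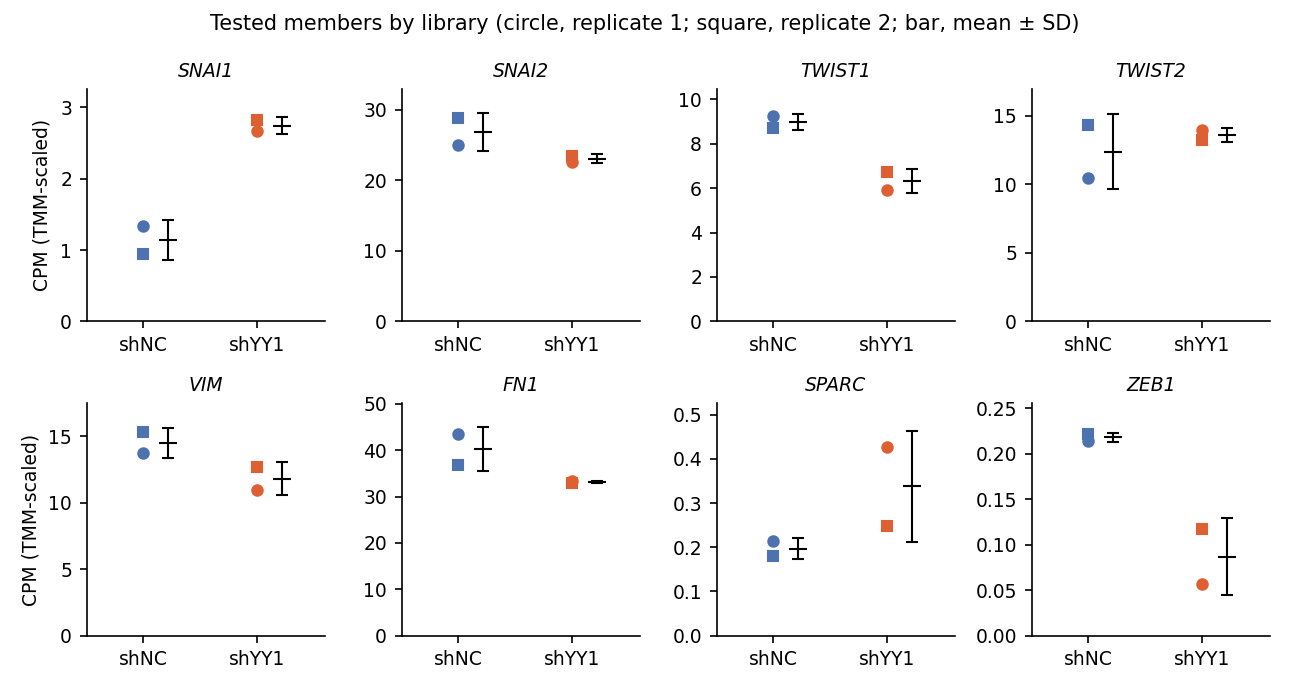
TMM-scaled CPM (y axis, from 0, own scale per panel) of the 8 tested genes in the shNC and shYY1 libraries; points are libraries, and horizontal marks with bars are the mean ± SD of 2 libraries. SNAI1 lies at 0.942 and 1.34 CPM in shNC and at 2.66 and 2.82 CPM in shYY1, while TWIST2 shows overlapping groups.

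SNAI1 encodes Snail, a direct repressor of E-cadherin whose protein is rapidly degraded. The gene (ENSG00000124216, chromosome 20, 49982980 to 49988886, plus strand) was counted 94 and 68 times in shNC and 187 and 193 times in shYY1. Its mean level was 1.14 ± 0.282 CPM in the controls and 2.74 ± 0.116 CPM after knockdown (SD, n = 2 each). Both shYY1 libraries lay above both shNC libraries. The log2 fold change was 1.26 ± 0.307 (SE), or 2.40-fold higher, with an edgeR adjusted p of 0.0355 and a 95% interval from 0.57 to 1.96. The call did not hold with every library left out. Without shNC replicate 2, the library with the lowest value, the log2 fold change was 1.03 (edgeR adjusted p = 0.0915). It was 1.31 (0.0876) without shYY1 replicate 1 and 1.22 (0.107) without shYY1 replicate 2. Without shNC replicate 1 it was 1.54 and the call was kept (0.0444). With library totals in place of TMM factors SNAI1 was at 1.21 and just missed the threshold (0.05002).

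SNAI2 encodes Slug, the relative of Snail that marks basal and squamous epithelium as well as migrating cells. It was the more abundant of the pair by far (ENSG00000019549, chromosome 8, 48917598 to 48921440, minus strand), with 1747 and 2076 counts in shNC and 1591 and 1604 in shYY1. In CPM these were 24.9 and 28.8 against 22.6 and 23.5, so both shYY1 libraries lay below both shNC libraries, by less in the nearest pair than the 2 shNC libraries lay apart. The log2 fold change of -0.22 ± 0.115 (SE) did not pass (edgeR adjusted p = 0.280; 95% interval -0.48 to 0.04). On the FPKM scale (fragments per kilobase of gene length, scaled to library size), which allows genes to be set side by side, SNAI1 made up 9.31% and 5.86% of the SNAI1 and SNAI2 sum in shNC and 18.4% and 18.8% in shYY1. Snail RNA thus remained the minor share of the pair in all 4 libraries.

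TWIST1, a basic helix-loop-helix factor of mesoderm and cranial development, had the smallest p-value among the genes that were lower (ENSG00000122691, chromosome 7, 19020991 to 19117118, minus strand). Its libraries had 646 and 628 counts in shNC and 417 and 458 in shYY1, or 8.96 ± 0.366 and 6.32 ± 0.545 CPM (SD, n = 2 each). The groups did not overlap. The log2 fold change was -0.50 ± 0.169 (SE; 1.42-fold lower; edgeR adjusted p = 0.0984; 95% interval -0.89 to -0.12, unadjusted p = 0.0159). On the deposited FPKM values limma-trend called it lower (-0.43, adjusted p = 0.0389 with a pseudocount of 1, and -0.54, 0.0381 with a pseudocount of 0.1). With any library left out, edgeR's value stayed between -0.59 and -0.42 without passing.

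TWIST2, its paralog, known for roles in dermis and in repressing muscle and bone differentiation, was the more abundant of the pair (ENSG00000233608, chromosome 2, 238848032 to 238910534, plus strand). The counts were 731 and 1034 in shNC and 982 and 904 in shYY1, so both shYY1 values fell between the 2 shNC values. The log2 fold change was 0.14 ± 0.17 (SE; edgeR adjusted p = 0.697; 95% interval -0.25 to 0.52), and it was -0.07 (0.820) without shNC replicate 1. TWIST1 made up 45.3% and 36.2% of the TWIST1 and TWIST2 sum in FPKM in shNC and 28.4% and 32.1% in shYY1. These shares did not overlap, and no test of them was made.

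ZEB1 and ZEB2, large repressors with paired zinc finger clusters that are held down in epithelium by microRNAs of the miR-200 family, were close to undetected. ZEB1 (ENSG00000148516, chromosome 10, 31318495 to 31529813, plus strand) had 15 and 16 counts in shNC and 4 and 8 in shYY1. The shYY1 libraries were the lower ones, but the log2 fold change of -1.31 had a standard error of 1.09 (edgeR adjusted p = 0.521; 95% interval -3.78 to 1.16). ZEB1 reached the count filter only through shNC, where it was higher. ZEB2 (ENSG00000169554, chromosome 2, 144364364 to 144520400, minus strand) had 0 and 4 counts in shNC and 3 and 0 in shYY1, at or near the floor of 3 counts, which corresponds to 0.0414 to 0.0445 CPM. No difference in ZEB2 was detectable at this depth. The floor and its range cover counting error only, as the reads carry no stated molecular identifiers and may be copies of a molecule.

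VIM encodes vimentin, the intermediate filament protein of mesenchymal cells (ENSG00000026025, chromosome 10, 17228241 to 17237593, plus strand). It had 961 and 1104 counts in shNC and 767 and 867 in shYY1, or 14.5 ± 1.12 and 11.8 ± 1.26 CPM (SD, n = 2 each). The lower shNC library, at 13.7 CPM, was only slightly above the higher shYY1 library, at 12.7 CPM. The log2 fold change was -0.30 ± 0.143 (SE) and did not pass (edgeR adjusted p = 0.240; 95% interval -0.62 to 0.03).

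FN1 encodes fibronectin, a matrix glycoprotein that binds integrins (ENSG00000115414, chromosome 2, 215360440 to 215436073, minus strand). Its counts were the highest of the 9 genes with a row, 3053 and 2658 in shNC and 2345 and 2250 in shYY1. In CPM these were 43.6 and 36.8 against 33.4 and 32.9, with no overlap. The log2 fold change was -0.28 ± 0.11 (SE; edgeR adjusted p = 0.154; 95% interval -0.53 to -0.03). Without shNC replicate 2, the lower control library was gone and FN1 passed as lower (-0.39, adjusted p = 0.0318), and without shNC replicate 1 its value was -0.15 (0.418).

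SPARC encodes a secreted collagen- and calcium-binding glycoprotein of matrix remodelling (ENSG00000113140, chromosome 5, 151661096 to 151686975, minus strand). It had 15 and 13 counts in shNC and 30 and 17 in shYY1. The direction was upward, but at this depth the log2 fold change of 0.77 had a standard error of 0.819 (edgeR adjusted p = 0.632; 95% interval -1.08 to 2.63).

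**Figure D2:**
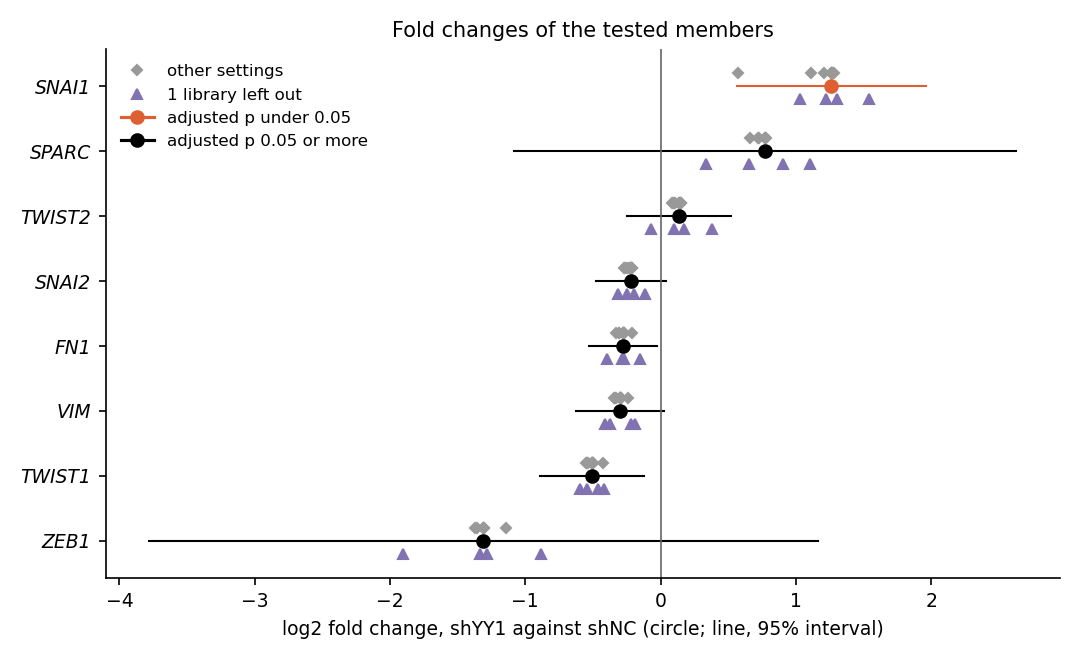
Log2 fold change of shYY1 against shNC (x axis) for the 8 tested genes; circles and lines are the edgeR value and its 95% interval, diamonds are other settings and triangles are fits with 1 library left out. The interval of SNAI1 runs from 0.57 to 1.96, and those of ZEB1 (-3.78 to 1.16) and SPARC (-1.08 to 2.63) are the widest shown.

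Levels set the frame for these differences. In FPKM, SNAI2 was highest in shNC at 6.99 ± 0.444, followed by TWIST2 at 5.64 ± 1.05, TWIST1 at 3.84 ± 0.303, VIM at 2.39 ± 0.0944, FN1 at 1.99 ± 0.311 and SNAI1 at 0.57 ± 0.163 (SD, n = 2). SPARC at 0.035 ± 0.00566 and ZEB1 at 0.0207 were far lower, and ZEB2 was listed at 0 in 1 shNC library and at 0.00155 FPKM in the other. No neighbours in this order overlapped in their shNC libraries. In shYY1, TWIST2 (6.24 and 5.75) and SNAI2 (5.76 and 5.82) overlapped and could not be ordered, whereas the order of the others was as in shNC without overlap. Among SPARC, ZEB1 and ZEB2 this order rests on few counts and is not taken as established. SPARC (15 and 13 counts) and ZEB1 (15 and 16) were counted alike in shNC, so their order there depends on the gene lengths used. In shYY1, ZEB1 had 4 and 8 counts and ZEB2 had 3 and 0. SNAI2 stood at the 82.9th percentile of all 30716 rows by mean FPKM, VIM at the 71.8th and ZEB1 at the 24.6th.

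With summed counts taken as the library size, the deposited FPKM values and counts imply a gene length of 6165 bases for VIM and 20565 for FN1. Another library size behind the FPKM would scale these lengths by a common factor, which was not tested. All annotated exons of VIM and FN1 in GENCODE 29 join to 5158 and 17315 bases. Their transcripts with the longest coding sequence have 1868 and 8905 bases. Per kilobase of such a transcript, a scale chosen after seeing the data, VIM was at 7.77 ± 0.599 CPM in shNC and 6.32 ± 0.673 in shYY1 and moved ahead of TWIST1 (5.38 ± 0.22 and 3.79 ± 0.327). The ranks of the other 7 genes were the same on both scales.

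**Figure D3:**
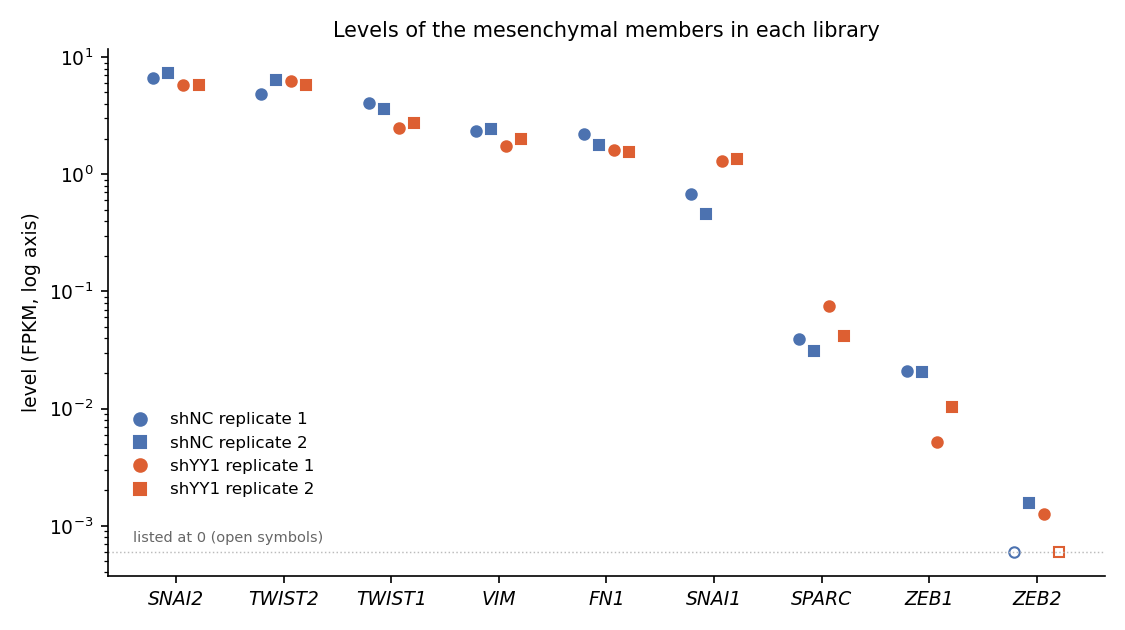
FPKM (y axis, log scale) of the 9 genes with a row, in each of 4 libraries, ordered by mean level; open symbols on the dotted line are libraries listed at 0. SNAI2, TWIST2, TWIST1, VIM, FN1 and SNAI1 lie between 0.454 and 7.30 FPKM, and SPARC, ZEB1 and ZEB2 at 0.0745 FPKM or less.

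Among epithelial genes, levels ran from far above to below those of the mesenchymal factors. The desmosomal cadherin genes DSG3 and DSC3, for example, were at 2.49 and 1.67 FPKM in shNC, below SNAI2, TWIST2 and TWIST1. KRT18, an epithelial keratin of the same filament superfamily as vimentin, was at 962 ± 118 FPKM in shNC and 947 ± 17.9 in shYY1 (SD, n = 2 each), 378 to 547 times VIM in single libraries. The size of this ratio depends on the gene lengths used for FPKM. CDH1, which encodes E-cadherin and is the classical target of Snail, was at 34.9 ± 1.22 FPKM in shNC and 39.3 ± 0.477 in shYY1. Its log2 fold change was 0.22 ± 0.0747 (SE) and did not pass (edgeR adjusted p = 0.0983). It did pass as higher in DESeq2 (adjusted p = 0.0219), and in edgeR without shNC replicate 1 (0.0329) and without shNC replicate 2 (0.0213), while its adjusted p reached 0.554 without shYY1 replicate 2. CDH2, the N-cadherin gene that replaces it in mesenchymal cells, was at 0.25 ± 0.00119 and 0.146 ± 0.0306 FPKM (log2 fold change -0.73 ± 0.288, SE; edgeR adjusted p = 0.155). The ratio of CDH1 to CDH2 was 144 and 136 in shNC and 237 and 314 in shYY1.

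Reads of an antisense partner could add to a gene where counting ignores strand, and the strand setting is not given in the sources used here. VIM-AS1, which shares 641 exon bases with VIM (12.4% of its exon length), had 49 and 30 counts in shNC and 43 and 23 in shYY1, a small number beside the counts of VIM. Another antisense gene there, AL133415.1, was not analysed here. TWIST1 shares 141 exon bases with AC003986.2, which had 12 counts over all 4 libraries, and SPARC shares 381 with CLMAT3, which had 15. For ZEB1 the partner was the larger one. ZEB1-AS1, which shares 366 exon bases with it, had 166 and 85 counts in shNC and 51 and 80 in shYY1 (log2 fold change -0.90 ± 0.439, SE; edgeR adjusted p = 0.245), so the few ZEB1 counts cannot be told apart from antisense reads. No GENCODE 29 gene overlapped SNAI1, SNAI2, TWIST2 or FN1.

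Around the 10 genes, a list of other transition factors and inhibitors of such factors had genes called higher and none lower. Of 28 listed, 21 were tested, 6 rose, 0 fell and 15 were not called, and the median log2 fold change was 0.26. Over all tested genes, 5.05% were called higher and 4.9% lower. At an unadjusted p under 0.05, edgeR had 1 lower in the list. DESeq2 called 8 higher and 1 lower, and limma-trend 6 and 0. TCF3, the E-protein that pairs with TWIST and also represses E-cadherin, rose from 114 ± 6.39 to 185 ± 9.55 CPM (SD; log2 fold change 0.69 ± 0.0821, SE; edgeR adjusted p = 0.00191). ID4, ID3 and ID1, inhibitors that bind E-proteins and keep them from DNA, rose by 1.08, 0.44 and 0.40 on the log2 scale, and the homeobox factor MSX2 by 0.36 (edgeR adjusted p = 0.0102, 0.0251, 0.0307 and 0.0256). FOXQ1, a forkhead factor tied to mesenchymal transition in carcinoma, rose from 6.36 ± 1.35 to 15.7 ± 0.88 CPM (SD; log2 fold change 1.30 ± 0.178, SE; edgeR adjusted p = 0.00325). HMGA1, an architectural chromatin protein, was the most abundant of the list with a mean of 623 FPKM in shNC and 631 in shYY1, and did not pass. Only 3 of the list were called without shYY1 replicate 1, and 3 without shYY1 replicate 2, whereas 8 were higher and 1 lower without shNC replicate 2. ID3 was at 0.53 (0.0529) and 0.34 (0.265) there and at 0.38 (0.0533) without shNC replicate 1, MSX2 lost its call without shYY1 replicate 1 (0.150) and replicate 2 (0.272), and ID1 likewise (0.257 and 0.0916).

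Partners and turnover enzymes of the SNAI, ZEB and TWIST proteins moved in both directions. Of 37 tested, 4 rose and 6 fell, with a median log2 fold change of -0.08. Together 27.0% were called in either direction, against 9.94% of all tested genes. FBXO45, a substrate receptor of a ubiquitin ligase for EMT factors, rose from 67.3 ± 6.78 to 127 ± 3.32 CPM (SD, n = 2 each; log2 fold change 0.92 ± 0.092, SE; edgeR adjusted p = 0.00094), and the corepressor deacetylase HDAC1 by 0.47 (0.0129). Other ligase receptor genes of the list were called in both directions. FBXW7 rose by 0.56 on the log2 scale (edgeR adjusted p = 0.0306), whereas BTRC fell by 0.57 (0.00771) and FBXL5 by 0.45 (0.0456). PARP1, a binding partner of Snail, fell by 0.65 on the log2 scale (edgeR adjusted p = 0.00195), the kinase PAK1, which phosphorylates Snail, by 0.70 (0.00252), and the LIM-domain corepressor LIMD1 by 0.77 (0.0044). YBX1, an RNA-binding protein, and DDX5, an RNA helicase, were among the 3 most abundant genes of the list at 417 ± 19.3 and 67.5 ± 3.47 FPKM in shNC, and neither passed. Without shYY1 replicate 1 the list had 1 higher and 5 lower, without shYY1 replicate 2 it had 2 and 4, and without shNC replicate 1 it had 5 and 9. HDAC1 (0.47 and 0.46) lost its call in both fits without a shYY1 library, whereas FBXO45, PARP1, PAK1 and LIMD1 kept theirs. FBXL5 (-0.40 and -0.50) also lost its call in both, FBXW7 (0.45) without shYY1 replicate 1 and BTRC (-0.54) without shYY1 replicate 2. Without shNC replicate 2, FBXL5 (-0.31) and FBXW7 (0.47) were not called.

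TGF-beta is the best known outside signal for this transition. Of 21 genes of TGF-beta and BMP signalling, 1 rose and 3 fell, with a median log2 fold change of -0.14. The share called in either direction was 19.0%, against 9.94% of all tested genes. The ligand gene TGFB2 fell from 35.5 ± 5.50 to 18.7 ± 0.181 CPM (SD, n = 2 each; log2 fold change -0.92 ± 0.128, SE; edgeR adjusted p = 0.00348), and the SMAD corepressor SKI fell by 0.64 (0.0031). SMAD6, an inhibitor of BMP signalling, fell by 0.83 (0.0152) and lost its call without shYY1 replicate 1 (-0.77, 0.0769). SMURF1, a ubiquitin ligase for receptors and SMADs, rose by 0.42 (0.0121), a call lost without shYY1 replicate 1 (0.0880) and replicate 2 (0.143). SMAD3 and BMP4 were the other abundant genes of the list, at 15.3 ± 0.403 and 14.1 ± 1.05 FPKM in shNC, and neither was called. Over the list, 0 were higher and 2 lower without shYY1 replicate 1, 0 and 3 without shYY1 replicate 2, and 2 and 5 without shNC replicate 2.

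Of 33 tested genes in a wider list of mesenchymal markers, 1 rose and 5 fell, with a median log2 fold change of 0.00147. The share called in either direction was 18.2%, against 9.94% of all tested genes. AXL, a receptor tyrosine kinase linked to the mesenchymal state, fell from 291 ± 30.6 to 163 ± 2.72 CPM (SD, n = 2 each; log2 fold change -0.83 ± 0.0909, SE; edgeR adjusted p = 0.00136). LOXL2, a collagen-crosslinking enzyme, fell by 0.66 (0.00844) and the matricellular gene CCN2 by 0.57 (0.0124), and both lost the call without shYY1 replicate 2 (0.0554 and 0.0816). CCN1, its relative, fell by 0.38 (0.0279) and was not called without shYY1 replicate 1 (0.234) or replicate 2 (0.149). The proteoglycan SPOCK1, a relative of SPARC, fell by 0.45 (0.0146), a call also lost without either shYY1 library (0.127 and 0.0866). LGALS1 and ITGB1, the most abundant markers besides CCN1, did not pass. The list had 1 higher and 3 lower without shYY1 replicate 1, 1 and 1 without shYY1 replicate 2, 2 and 5 without shNC replicate 1, and 4 and 6 without shNC replicate 2.

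In the epithelial lists, 3 of 20 tested factors and 3 of 30 tested targets were called in either direction, against 9.94% of all tested genes. Of 20 tested epithelial transcription and splicing factors 3 rose and 0 fell, with a median log2 fold change of 0.16 (0 lower also at an unadjusted p under 0.05 in edgeR, and 0 adjusted in DESeq2, which called 5 higher, and in limma-trend, which called 3). Among these were KLF4, a differentiation factor of keratinocytes (0.62 ± 0.0899, SE; edgeR adjusted p = 0.00423), and FOXA2, a forkhead factor of endoderm (0.81 ± 0.145, SE; 0.0102). FOXA2 was at 0.71 without shYY1 replicate 2 and not called there (0.0606). The splicing factor ESRP1, the most abundant of the list, was at 40.9 ± 4.69 FPKM in shNC and 37.2 ± 0.347 in shYY1 (SD, n = 2 each). The factor list had 2 higher without that library and 4 without shNC replicate 2. Among 30 epithelial genes that hold targets of SNAI, ZEB and TWIST repression, 1 rose and 2 fell, with a median of 0.10. MARVELD3, of tight junctions, rose by 0.46 on the log2 scale (edgeR adjusted p = 0.0141), CDS1, an enzyme of phospholipid synthesis, fell by 0.90 (0.00224), and the tight junction gene CGN fell by 0.33 (0.0465). MARVELD3 was not called without shYY1 replicate 1 (0.0963) or replicate 2 (0.130), and CGN was not called without shNC replicate 2 (0.0519), shYY1 replicate 1 (0.418) or shYY1 replicate 2 (0.123). Without shNC replicate 2 the target list had 12 higher and 3 lower, without shNC replicate 1 it had 4 and 3, and without either shYY1 library 0 and 1. KRT8 and KRT19 were, with KRT18, its most abundant genes at 761 ± 93.9 and 421 ± 34.8 FPKM in shNC, and were not called.

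**Figure D4:**
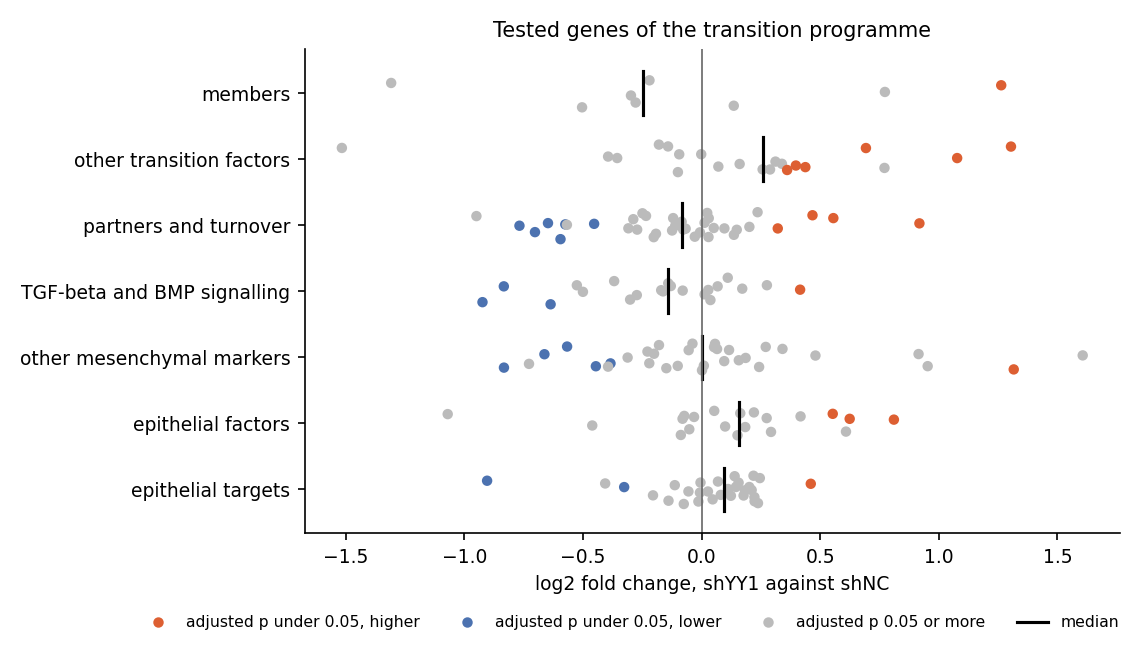
Log2 fold change of shYY1 against shNC (x axis) for every tested gene of 7 lists; each point is a gene, colours mark edgeR adjusted p under 0.05 by direction, and black bars are medians. The medians lie between -0.25 for the 10 genes described and 0.26 for other transition factors.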

How the data were processed

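RNA of 4 libraries (2 shNC, 2 shYY1) was analysed, grouped by sample title. The table the authors deposited holds raw whole-number counts for each gene and library. The authors also deposited FPKM, which they scaled to gene length and library size. Bowtie 0.12.2 and the mouse builds mm8 and mm9 are named, per the submitters' processing notes, but cannot have given a table of human Ensembl IDs. Which aligner, counter, strand setting and build did is not given in the sources used here. Of its 30716 IDs, 29871 are in GENCODE 29 (GRCh38), all 29871 on the same chromosome.

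Counts were filtered with filterByExpr (minimum count 10, total 15), scaled by TMM and tested with edgeR 4.0.16 (R 4.3.3, robust quasi-likelihood fit, no block, Benjamini-Hochberg at 0.05). The fit had 2 residual degrees of freedom among samples and a common biological coefficient of variation of 20.2%. Standard errors came from the fold change and F. The 95% intervals are for single genes, not adjusted. Same-group libraries differed beyond counting noise (chi-square per gene 41.6 in shNC and 18.9 in shYY1), so each was counted as a sample, which does not show that they came from separate cultures. Other settings tried were DESeq2 1.42.0, RLE factors, unscaled library totals, dropping the filter, a filter at 5 CPM in 2 libraries, limma-trend (limma 3.58.1) on log2 CPM and on log2(FPKM + 1) and log2(FPKM + 0.1), no robust estimation, each library left out and the replicate number as a block.

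The genes and lists were chosen with earlier results of these data known. Named are YY1, all 10 genes, in each list up to 4 called genes with the smallest adjusted p, up to 2 called the other way and the 3 of highest FPKM, and antisense partners with a row. CDH1, CDH2, ID1, MSX2, CCN1, HDAC1 as a called gene, BTRC, FBXL5, FBXW7, DSG3, DSC3 and all ratios and shares between genes were picked once their values had been seen. The number of columns from samples of other series was 0. Some genes that meet this rule are not reported here.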

Additional observations from a re-analysis of the deposited data

How the results depend on the processing

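Of 103 recomputed fold changes of the tested genes VIM, FN1, SNAI1, SNAI2, ZEB1, TWIST1, TWIST2 and SPARC, 95 kept their direction and their side of the threshold. Since 7 of these 8 genes were not called in the main fit, most of the 95 are values that stayed uncalled. Settings that gave a gene no adjusted p are not among the 103. SNAI1 lost its call with library totals alone (1.21) and in 3 of the 4 fits with a library left out, where its log2 fold change ranged from 1.03 to 1.54. TWIST1 passed on FPKM (-0.43 with a pseudocount of 1, -0.54 with 0.1), and FN1 passed in 1 of the fits with a library left out (-0.39 to -0.15). TWIST2 turned direction without shNC replicate 1, to -0.073 (to 0.38 without shNC replicate 2). The count of these genes called higher was 0 with library totals alone and 0 with at least 5 CPM in 2 libraries, a filter that removes SNAI1, and 0 to 1 with a library left out. The count called lower was 1 with FPKM at a pseudocount of 1, 1 at 0.1, and 0 to 1 with a library left out.

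Over all genes, 910 were called higher and 883 lower, and 1470 higher with DESeq2. With a library left out the counts were 338 to 1993 higher and 513 to 1164 lower. Such fits have 1 library in a group, which is assumed to vary like the other group. The share of calls that were higher was 50.8%, and 40.4% with library totals alone, which moved the median of all genes to -0.06. With the replicate number as a block 1475 were higher and 1427 lower, and SNAI1 was at 1.28 (edgeR adjusted p = 0.0157). The numbers are not said to pair libraries, and the deviations of libraries with the same number correlated at 0.00395, so the block is not read as a pairing. DESeq2 gave no adjusted p for ZEB1 and SPARC, and the FPKM filter left both untested. The causes of these moves were not tested. Depth limits ZEB1, ZEB2 and SPARC most, at 30 counts or fewer per library.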

Other observations

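Relatives of the marker genes gave further values. A further list held SPARC relatives, fibronectin receptors and filament relatives of vimentin. It left out SPOCK1, a relative of SPARC that fell and was counted among the wider mesenchymal markers. Of 20 tested genes in this list, 2 rose and 0 fell, with a median log2 fold change of -0.14. The share called in either direction was 10%, against 9.94% of all tested genes. At an unadjusted p under 0.05, edgeR had 4 lower. DESeq2 called 3 higher and 0 lower, and limma-trend 2 and 0. The list had 3 higher and 2 lower without shNC replicate 1 and 5 and 1 without shNC replicate 2. ITGB6, the epithelial integrin subunit that binds fibronectin and activates TGF-beta, rose from 135 ± 16.5 to 207 ± 15.1 CPM (SD, n = 2 each; log2 fold change 0.61 ± 0.101, SE; edgeR adjusted p = 0.00767). ITGA4, an integrin subunit of leukocytes and migrating cells, was at 0 counts in both shNC libraries and at 32 and 24 counts in shYY1, at least 9.56-fold higher with 3 counts per library as the floor. It passed the count filter only through shYY1, where it was high, so its place among the 2 that rose is not read as support, and DESeq2 gave it no adjusted p. INA, alpha-internexin, a filament protein best known from neurons, stood at 55.7 ± 1.22 FPKM in shNC and 63.0 ± 0.267 in shYY1, far above VIM in this epithelial line, and did not pass (log2 fold change 0.23 ± 0.0752, SE; edgeR adjusted p = 0.0891). The lamins LMNA and LMNB2, the other most abundant relatives, did not pass either.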
